A study of Mus musculus with 6 samples.

Results

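The macrophage genes Marco, Msr1, Cd36, Scarb1, Cd68, Olr1, Cd5l and Vsig4 were taken by symbol from a table of 48709 genes, where all 8 were found. They encode scavenger receptors of several classes, together with a secreted protein and a complement receptor that share ligands or cells with them. RNA was sequenced from F4/80+ CD11b+ cells sorted out of the peritoneal lavage of untreated C57BL/6 mice that were 6 to 8 weeks old. There were 3 libraries of wild-type mice and 3 of Zeb1 (+/-) heterozygous mice, and each library held the RNA of 2 pooled mice. Zeb1 encodes a zinc-finger transcription factor. How the altered allele was made, and the sex of the mice, are not given in the sources used here. A library is a pool, so the spread given below is that between pools. In bulk RNA, fewer cells of a type and less RNA per cell cannot be told apart.

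Scavenger receptors are surface proteins that bind modified lipoproteins, bacteria, apoptotic cells and other polyanionic particles and carry them into the cell. Class A receptors hold a collagen-like stalk, and class B receptors cross the membrane at both ends and move lipids. The products of Cd68 and Olr1, of other classes, are mucin-like and lectin-like. In the peritoneal cavity, resident macrophages use scavenger receptors to clear particles and microbes without prior opsonization. Tissue macrophages make Cd5l and Vsig4 alongside them.

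None of the 8 genes passed the edgeR quasi-likelihood test at an adjusted p of 0.05, against 0.587% of the 12940 genes tested. At an unadjusted p under 0.05 there were 3 of 8, against 14.6% of all tested genes. Those 3 (Marco, Scarb1 and Cd5l) were also the ones whose wild-type and Zeb1 (+/-) values did not overlap, against 19.9% of all tested genes (9.6% with Zeb1 (+/-) above and 10.3% with it below). Marco was the lowest relative to wild-type, at 0.56 of the wild-type level, and its 3 Zeb1 (+/-) values lay below its 3 wild-type values. Cd5l and Scarb1 lay on the other side, with all Zeb1 (+/-) values above all wild-type values. Msr1, Cd36, Cd68, Vsig4 and Olr1 had overlapping groups. DESeq2 called 1 of the 8 (Cd5l, higher), where that tool called 2.71% of all tested genes in either direction and 0.842% higher, and limma-voom called 0, against 0.611% of genes called by it in either direction.

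**Figure D1:**
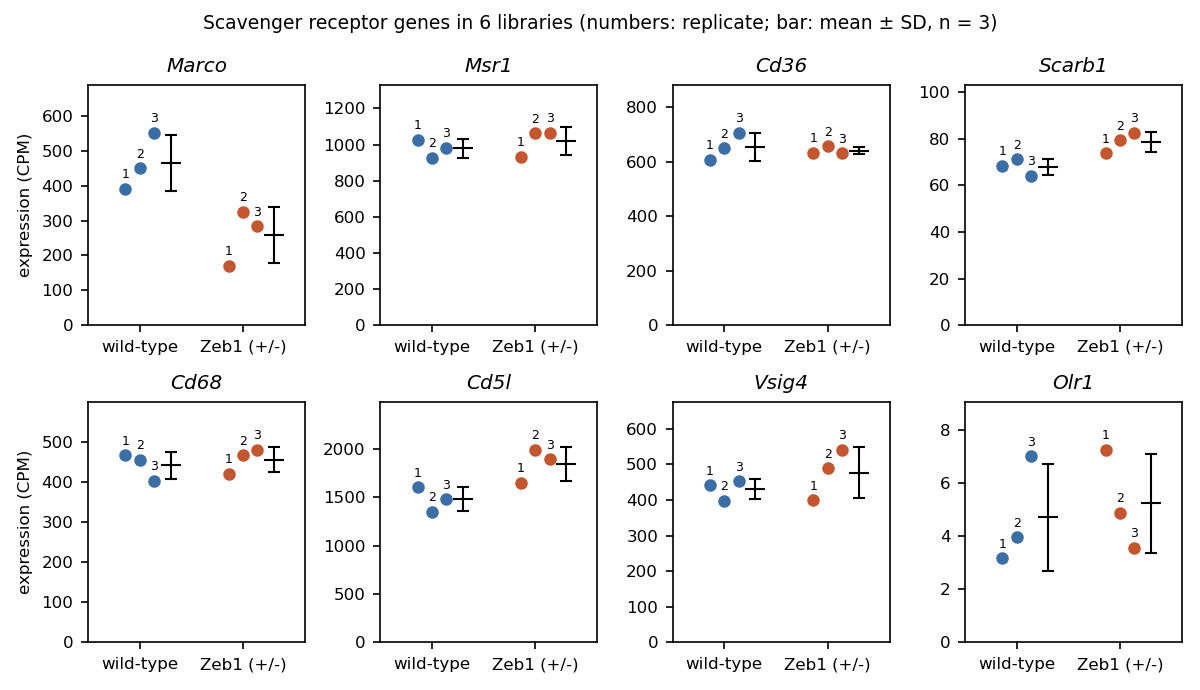
Expression of the 8 genes in CPM (y axis from 0) in 3 wild-type (blue) and 3 Zeb1 (+/-) (orange) libraries, with the replicate number above each point and the mean ± SD (n = 3) as a black bar. The Marco points of the genotypes do not overlap, with 391 to 552 CPM in wild-type, against 170 to 326 CPM in Zeb1 (+/-), while those of Cd36 and Cd68 do.

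The libraries held 17859872 to 42165006 counts, so 1 CPM (counts scaled to library size) stood for 17.9 to 42.2 counts. Zeb1 itself was at 5.44, 7.56 and 7.22 CPM in wild-type, against 3.85, 3.45 and 3.62 CPM in Zeb1 (+/-) replicates 1, 2 and 3, with no overlap and an edgeR adjusted p of 0.0522. The genes behind the sort were abundant: the F4/80 gene Adgre1 had 2186 ± 38.6 and 2618 ± 23.8 CPM (SD, n = 3 each), and the CD11b gene Itgam had 4848 ± 162 and 5061 ± 343 CPM, although 66.3% of the 50-base stretches of Itgam also occur in Gm49368. All Zeb1 (+/-) values of Adgre1 lay above all wild-type values (log2 fold change 0.26, edgeR adjusted p = 0.111), as in 9.6% of all tested genes. Those of Itgam overlapped. All 12 core macrophage markers looked up were tested and 0 passed. Small structural RNA was scarce in wild-type replicate 1 (4.14 CPM in all) and replicate 2 (8.69 CPM), against 42.2 to 45.5 CPM in the remaining 4 libraries. Of 9 T and NK cell markers 2 were tested, which summed to at most 1.35 CPM in any library. Of 8 neutrophil markers 2 were tested, with a sum of at most 2.01 CPM. Of 8 eosinophil and mast cell markers 4 were tested, with a sum of at most 4.18 CPM. Markers too low to be tested are not in these sums. None of 10 mesothelium and fibroblast markers reached the level needed for testing. Dendritic cell markers, of which 5 of 7 were tested, summed to 73.0 to 91.2 CPM in wild-type, against 62.0 to 99.2 CPM in Zeb1 (+/-). Most of that sum came from Cd209a (means of 69.0 and 72.8 CPM), which is also among the markers of small peritoneal macrophages used below. Endothelium and platelet markers, of which 3 of 6 were tested, summed to 495 to 558 and 426 to 680 CPM. Nearly all of this came from Pf4 (means of 527 and 572 CPM). Cd209a and Pf4 are named after their values were seen.

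Marco (ENSMUSG00000026390.7, chromosome 1 from 120474538 to 120505024 on the minus strand of GRCm38) encodes the macrophage receptor with collagenous structure, a class A receptor for bacteria and unopsonized particles. Msr1 (ENSMUSG00000025044.16, chromosome 8 from 39581685 to 39642673, minus strand) encodes SR-A, the class A receptor first known for acetylated low-density lipoprotein. Both proteins form trimers through a stalk in which glycine recurs at a fixed spacing of 3 residues. In the annotated coding sequence of Marco (transcript Marco-201, 518 codons) the longest run of GGN codons (which encode glycine) at that spacing covered 81 triplets, from codon 177 to codon 419. In Msr1 (transcript Msr1-201, 458 codons) it covered 25 triplets, from codon 277 to codon 351, and in the other 6 genes no more than 2. The first 30 codons of each run are shown because the stalk is what sets these class A genes apart from the rest, with the GGN codons in capitals and counted from the start codon. They were read from annotated transcripts and span more than 1 exon in both genes.
Marco coding stretch, codons 177 to 206: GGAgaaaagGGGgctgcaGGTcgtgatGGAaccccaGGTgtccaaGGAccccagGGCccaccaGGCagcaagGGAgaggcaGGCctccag
Msr1 coding stretch, codons 277 to 306: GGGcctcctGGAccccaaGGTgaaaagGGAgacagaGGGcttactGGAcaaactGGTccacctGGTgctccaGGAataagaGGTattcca

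Marco was at 391, 450 and 552 CPM in wild-type replicates 1, 2 and 3. In Zeb1 (+/-) replicates 1, 2 and 3 it was at 170, 326 and 283 CPM. The highest Zeb1 (+/-) library, replicate 2, thus stayed below the lowest wild-type library, replicate 1, and Zeb1 (+/-) replicate 1 stood apart at the bottom. This gave 464 ± 81.3 CPM in wild-type, against 260 ± 80.5 CPM in Zeb1 (+/-) (mean ± SD, n = 3 each). The log2 fold change, always of Zeb1 (+/-) relative to wild-type, was −0.84 ± 0.21 (SE; 95% confidence interval −1.32 to −0.35; edgeR adjusted p = 0.134). The raw counts behind these values ran from 3046 to 13791, for which counting error alone comes to at most 1.81% of a value. The spread between pools was 17.5% of the mean in wild-type and 31.0% in Zeb1 (+/-), more than counting error in either genotype. Without Zeb1 (+/-) replicate 1 the log2 fold change was −0.60, and without Zeb1 (+/-) replicate 2 it was −1.03. Neither passed the edgeR test, with adjusted p of 0.149 and 0.210.

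Over 15 other settings the log2 fold change of Marco ran from −1.09 to −0.60 and was below 0 in all of them. The lowest value came from the fit with a term for the structural RNA class of each library. In that fit wild-type replicates 1 and 2 alone form the low class. Genotype is then compared only between wild-type replicate 3 and the Zeb1 (+/-) libraries, so the value rests on 1 wild-type library. With the mean of B cell markers as a covariate it was −0.62, with an edgeR adjusted p of 0.508. That mean, in log2 CPM, was 3.37 to 4.22 in wild-type, against 2.78 to 3.06 in Zeb1 (+/-). Without overlap between the genotypes, this fit cannot separate the covariate from genotype. Marco passed the threshold in 1 setting, the edgeR fit of all 21101 genes with a count and no low-count filter, where its adjusted p was 6.1e-05. Its log2 fold change there was −0.81, close to the reported one, but its SE was 0.129, against 0.214 in the reported fit. The low p thus came with a smaller estimate of spread, not a larger change. With robust moderation the SE was 0.268 and the edgeR adjusted p 0.265.

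**Figure D2:**
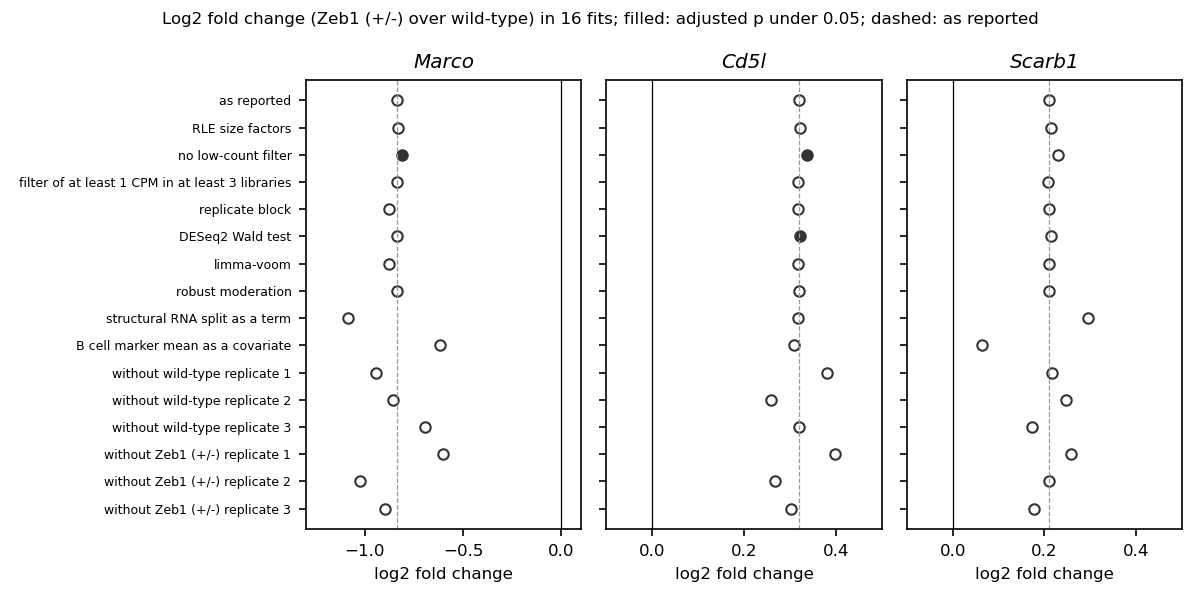
Log2 fold change (x axis) of Marco, Cd5l and Scarb1 in the reported fit and 15 other settings (y axis), filled where the adjusted p was under 0.05. Marco stays between −1.09 and −0.60 and is filled in 1 setting, Cd5l is filled in 2, and Scarb1 in none.

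Msr1 was at 1027, 926 and 983 CPM in wild-type replicates 1, 2 and 3. In Zeb1 (+/-) replicates 1, 2 and 3 it was at 933, 1064 and 1066 CPM, so the groups overlapped. Its log2 fold change of 0.06 had a 95% confidence interval of −0.11 to 0.24 (edgeR adjusted p = 0.754). The difference between the changes of Marco and Msr1 was not tested. The level of Marco set against that of Msr1 in the same library was 0.381, 0.486 and 0.561 in wild-type and 0.182, 0.306 and 0.266 in Zeb1 (+/-). These ratios did not overlap between the genotypes. They carry no test of their own.

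Cd36 (ENSMUSG00000002944.15, chromosome 5 from 17781690 to 17888801, minus strand) encodes the class B receptor that takes up fatty acids and oxidized lipoproteins. It was at 607, 648 and 706 CPM in wild-type and at 632, 655 and 631 CPM in Zeb1 (+/-) replicates 1, 2 and 3. All 3 Zeb1 (+/-) values lay inside the wild-type range. The log2 fold change was −0.03 (95% confidence interval −0.19 to 0.13; edgeR adjusted p = 0.875). Scarb1 (ENSMUSG00000037936.15, chromosome 5 from 125277087 to 125341094, minus strand) encodes SR-BI, the high-density lipoprotein receptor that exchanges cholesterol with the particle. Its values were 68.4, 71.3 and 64.2 CPM in wild-type, against 73.9, 79.3 and 82.7 CPM in Zeb1 (+/-). The groups did not overlap, by a margin of a few CPM between wild-type replicate 2 and Zeb1 (+/-) replicate 1. The log2 fold change was 0.21 ± 0.07 (SE; 95% confidence interval 0.05 to 0.37; edgeR adjusted p = 0.226). With the B cell marker mean as a covariate it was 0.06 (edgeR adjusted p = 0.835). An uncharacterized gene, Gm42633, lies inside Scarb1 on the same strand.

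Cd68 (ENSMUSG00000018774.13, chromosome 11 from 69664213 to 69666153, minus strand) encodes macrosialin, a mucin-like protein of late endosomes and lysosomes that is widely used as a macrophage marker. It was at 466, 454 and 403 CPM in wild-type and at 420, 466 and 479 CPM in Zeb1 (+/-) replicates 1, 2 and 3. The groups overlapped, and the log2 fold change was 0.05 (95% confidence interval −0.14 to 0.23; edgeR adjusted p = 0.827). Olr1 (ENSMUSG00000030162.14, chromosome 6 from 129485244 to 129507165, minus strand) encodes LOX-1, the lectin-like receptor for oxidized low-density lipoprotein. It was the lowest of the 8, at 3.18, 3.98 and 7.01 CPM in wild-type, against 7.26, 4.89 and 3.56 CPM in Zeb1 (+/-). Its counts were 106 to 207 per library, for which counting error comes to as much as 9.71% of a value, and the spread between pools was larger, 42.8% of the mean in wild-type and 35.7% in Zeb1 (+/-). Its log2 fold change of 0.15 had a 95% confidence interval of −0.58 to 0.88 (edgeR adjusted p = 0.858), which leaves room for a change of either sign. It was 1.21 with the B cell marker mean as a covariate (edgeR adjusted p = 0.250). With the structural RNA term, a fit that rests on wild-type replicate 3 alone, it was −0.45.

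Cd5l (ENSMUSG00000015854.7, chromosome 3 from 87357881 to 87371073, plus strand) encodes AIM, a protein with cysteine-rich scavenger receptor domains that macrophages secrete and that is itself bound and taken up through Cd36. Its values were 1605, 1353 and 1482 CPM in wild-type replicates 1, 2 and 3. They were 1653, 1991 and 1894 CPM in Zeb1 (+/-) replicates 1, 2 and 3. All Zeb1 (+/-) libraries lay above all wild-type libraries, with Zeb1 (+/-) replicate 1 closest to the wild-type range. This gave 1480 ± 126 CPM in wild-type, against 1846 ± 174 CPM in Zeb1 (+/-) (mean ± SD, n = 3 each), and the log2 fold change was 0.32 ± 0.09 (SE; 95% confidence interval 0.11 to 0.53; edgeR adjusted p = 0.172). Cd5l passed the threshold in 2 of 15 other settings, DESeq2 (log2 fold change 0.32, adjusted p = 0.0322) and edgeR without the low-count filter (0.34, adjusted p = 0.0428). It ran from 0.26 to 0.40 over those settings.

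Vsig4 (ENSMUSG00000044206.3, chromosome X from 96247203 to 96293438, minus strand) encodes CRIg, an immunoglobulin-fold receptor of resident macrophages that binds C3b and iC3b and also captures bacteria directly. It was at 442, 398 and 452 CPM in wild-type and at 400, 490 and 541 CPM in Zeb1 (+/-) replicates 1, 2 and 3. Zeb1 (+/-) replicate 1 lay inside the wild-type range and the other two above it. The log2 fold change was 0.15 (95% confidence interval −0.10 to 0.39; edgeR adjusted p = 0.561), and with 1 library left out it ran from 0.051 (without Zeb1 (+/-) replicate 3) to 0.26 (without Zeb1 (+/-) replicate 1). Zeb1 (+/-) replicate 1 was also the lowest of its group for Marco, Msr1, Scarb1, Cd68 and Cd5l, and the highest for Olr1.

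The 8 genes summed to 4609, 4304 and 4649 CPM in wild-type, against 4289, 5076 and 4981 CPM in Zeb1 (+/-) replicates 1, 2 and 3. Cd5l supplied 31.4% to 34.8% of that sum in the wild-type libraries and 38.0% to 39.2% in the Zeb1 (+/-) libraries. Marco supplied 8.49% to 11.9% and 3.97% to 6.42%. These shares are given as a description, with no test.

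For levels between genes, CPM was divided by the length of all annotated exons of a gene in kilobases. On that scale the wild-type order was Cd5l (727 ± 61.9 CPM per kb; SD, n = 3), Cd68 (351 ± 26.7), Vsig4 (290 ± 19.7), Marco (241 ± 42.2), Cd36 (182 ± 13.9), Msr1 (154 ± 7.98), Scarb1 (7.99 ± 0.422) and Olr1 (1.32 ± 0.565). Vsig4 and Marco overlapped in wild-type (268 to 305 and 203 to 287 CPM per kb), while the other neighbours in this order did not. In Zeb1 (+/-) Marco was at 135 ± 41.8 CPM per kb, which put it below Cd36 (178 ± 3.79) in every library and overlapping with Msr1 (161 ± 12.02). Among 12911 tested genes with an exon length, Cd5l ranked 45 to 62 in the 6 libraries and Marco 137 to 436. Cd68 ranked 108 to 128, Vsig4 122 to 156, Cd36 205 to 233 and Msr1 242 to 272. Scarb1 ranked 3833 to 4700 and Olr1 8837 to 10299.

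That order depends on the length used, since all annotated exons came to 6344 bases in Msr1 and 8500 bases in Scarb1. The 1 transcript with the longest complete coding sequence had 1424 bases in Msr1, 1374 of them coding, and 2521 bases in Scarb1. All counts of a gene are divided by that length, so the Msr1 value may be too high. With the length of that transcript, Msr1 stood at 687 ± 35.5 CPM per kb in wild-type, overlapping with Cd5l, and Scarb1 at 27.0 ± 1.42. Marco and Cd36 then overlapped in wild-type, at 241 ± 42.2 and 217 ± 16.5 CPM per kb.

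**Figure D3:**
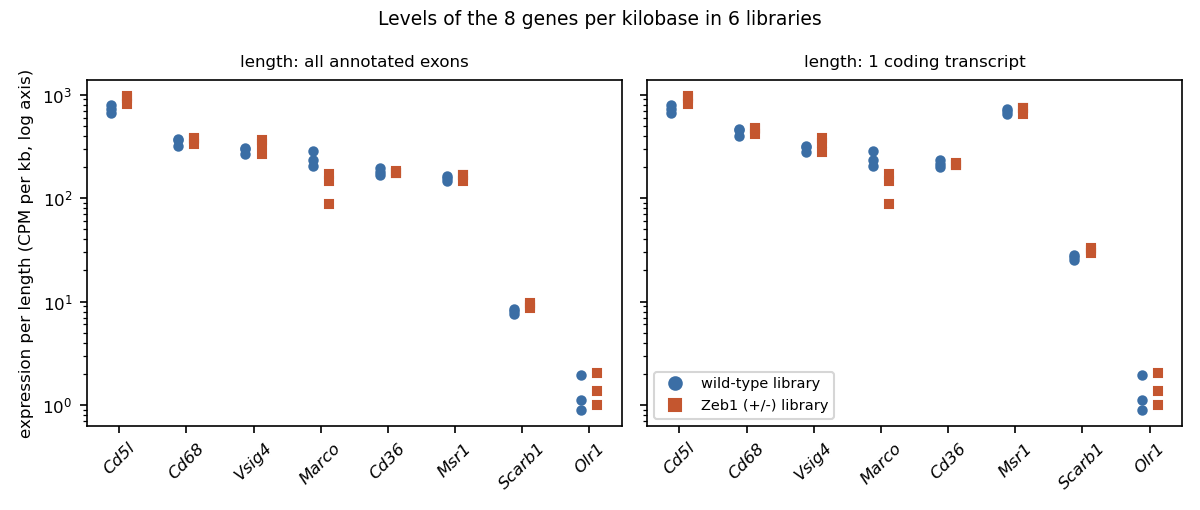
Levels in CPM per kb (log axis) of the 8 genes in wild-type (blue circles) and Zeb1 (+/-) (orange squares) libraries, with the length of all annotated exons on the left and of 1 coding transcript on the right. Cd5l is highest at 664 to 978 CPM per kb, Olr1 is lowest at 0.892 to 2.03, and Msr1 moves up on the right.

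Promoters of 6 of the 8 genes were found in a RefSeq table of build GRCm38.p6, those of Msr1 and Scarb1 not being among them. The 250 bases before each start were searched on both strands. The E-box CAGGTG, a sequence ZEB1 is known to bind, was in 0 of 6, against 17.2% of the 32851 promoters of the table. Shorter parts of CAGGTG were not searched for. Any E-box (CANNTG, which includes CAGGTG) was in 3 of 6 (Cd36, Cd68 and Cd5l), against 66.2%. The AP-1 site TGANTCA was in 2 of 6 (Cd68 and Olr1), against 6.7%, and the PU.1 core GAGGAA in 5 of 6 (all but Cd36), against 23.3%. A match is a description of these letters, and none says only that they are not in this window. For Cd36 the RefSeq start lies inside the annotated gene. The windows of Marco and Cd5l are shown because these genes lay on opposite sides of the wild-type level. Both read 5′ to 3′ toward the start on the strand of the gene, with the E-box CATCTG of Cd5l, 40 to 35 bases before the start, in capitals and no capitals in Marco.
Marco promoter, chr1:120505025-120505274, minus strand: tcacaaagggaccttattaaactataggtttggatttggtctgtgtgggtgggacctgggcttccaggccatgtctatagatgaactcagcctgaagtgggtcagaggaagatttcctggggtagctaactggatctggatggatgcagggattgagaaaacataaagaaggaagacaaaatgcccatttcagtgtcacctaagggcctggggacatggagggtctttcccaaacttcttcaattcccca
Cd5l promoter, chr3:87357631-87357880, plus strand: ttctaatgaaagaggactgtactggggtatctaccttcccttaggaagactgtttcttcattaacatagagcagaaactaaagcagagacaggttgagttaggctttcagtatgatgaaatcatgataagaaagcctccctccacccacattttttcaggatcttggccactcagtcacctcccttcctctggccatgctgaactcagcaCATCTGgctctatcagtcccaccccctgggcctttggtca

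Within 200 kb of the 8 genes lay 40 other tested genes, of which 10 had groups that did not overlap, against 19.9% of all tested genes. The edgeR test was passed by 1 of the 40, against 0.587% of all tested genes. It was Fcrls, an Fc receptor-like gene of small peritoneal macrophages and microglia 94.1 kb from Cd5l, which fell from 160 to 101 CPM (log2 fold change −0.65, edgeR adjusted p = 0.00683). Cd5l, with a log2 fold change of 0.32, thus lay beside a gene that fell. Marco, Msr1 and Cd36 had no tested neighbour in that window. Clec1b, a lectin gene 75.9 kb from Olr1, was at 1.66 and 3.70 CPM (log2 fold change 1.12, edgeR adjusted p = 0.0855) and is named after its values were seen.

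The 5 genes whose pattern over the 6 libraries was closest to that of Marco, by the root mean square difference of log2 CPM centred on each gene's mean among 9615 genes of at least 5 CPM, were Trpv4, Pydc4, Phldb1, Cd300ld4 and Cyp4f18. Their differences from Marco were 0.168, 0.188, 0.201, 0.231 and 0.235 on the log2 scale. Trpv4 encodes a calcium channel opened by mechanical and osmotic stimuli, and was at 14.7 ± 1.57 and 8.31 ± 1.33 CPM (SD, n = 3 each). Cyp4f18 encodes a cytochrome P450 that hydroxylates leukotriene B4, and was at 18.3 ± 1.76 and 10.6 ± 1.26 CPM. Pydc4, a pyrin-domain gene, was at 9.76 ± 2.34 and 5.37 ± 1.24 CPM, and Phldb1 at 9.67 ± 0.963 and 5.54 ± 0.761 CPM. Cd300ld4 was at 11.5 ± 2.64 and 7.24 ± 0.807 CPM, but 93.8% of its 50-base stretches also occur in other genes, mainly its Cd300ld relatives, as do 15.6% of those of Pydc4 in Ifi208 and others. All 5 were lowest in Zeb1 (+/-) replicate 1, as Marco was. The choice used the same 6 values, so their lower level in Zeb1 (+/-) follows from it.

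**Figure D4:**
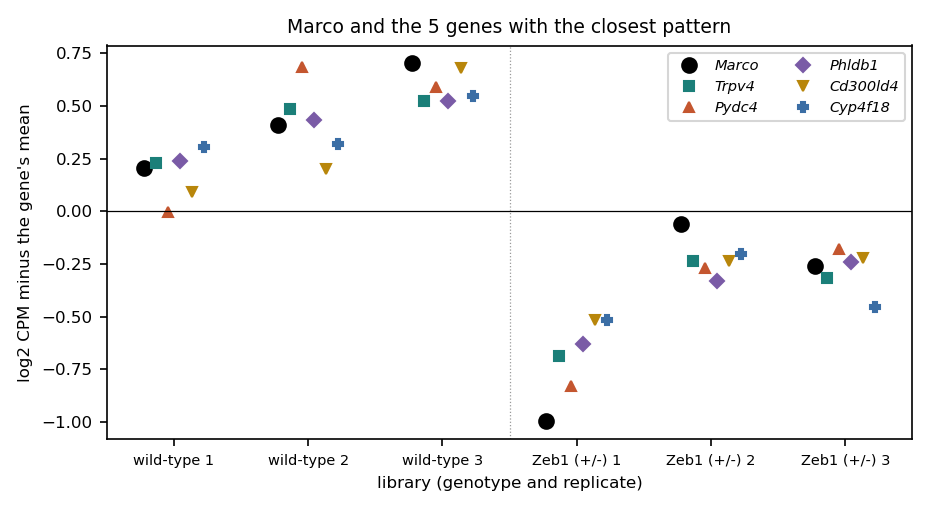
Log2 CPM minus the gene's own mean (y axis) in each library (x axis) for Marco (black circles) and the 5 genes with the closest pattern. Marco runs from −0.996 in Zeb1 (+/-) replicate 1 to 0.70 in wild-type replicate 3, and the 5 genes are lowest in the same Zeb1 (+/-) library.

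Among 20 other scavenger receptor genes, 14 were tested, 1 rose, 1 fell and 12 did not pass, with a median log2 fold change of −0.16 beside −0.00038 over all tested genes. Of all tested genes 0.155% rose and 0.433% fell. Colec12, a class A relative with a collagen-like stalk and a lectin domain that lies on the same chromosome as Zeb1, rose from 101.6, 95.8 and 99.0 CPM in wild-type to 174, 188 and 194 CPM in Zeb1 (+/-) (log2 fold change 0.91, edgeR adjusted p = 0.0014). The mannose receptor Mrc1 fell from 206, 206 and 242 CPM to 105, 108 and 120 CPM (−0.97, edgeR adjusted p = 0.00347). The groups of both genes were far apart. Cd163, the haptoglobin-haemoglobin receptor, was at 102, 77.4 and 138 CPM in wild-type, against 39.4, 30.4 and 64.9 CPM in Zeb1 (+/-), a log2 fold change of −1.23 that did not pass (edgeR adjusted p = 0.0988). It is named after its values were seen. Scara3, Scara5, Megf10, Stab2 and Ssc5d had at most 4 counts in any library, and Scart1 was not analysed here.

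**Figure D5:**
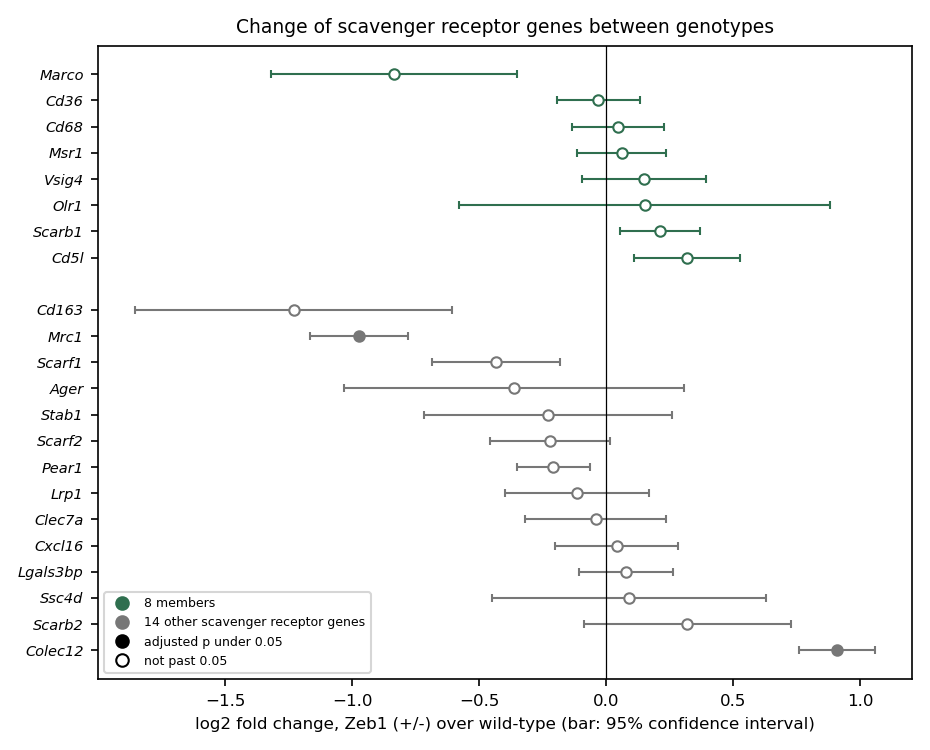
Log2 fold change (x axis) with 95% confidence interval of the 8 genes (green) and the 14 other tested scavenger receptor genes (grey), filled where the edgeR adjusted p was under 0.05. Of the 8 genes Marco lies lowest at −0.84 and none is filled, while Mrc1 (−0.97) and Colec12 (0.91) are filled.

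Of 18 genes known to act on the expression of scavenger receptors, 0 passed and 15 were below 0, against 6486 of all 12940 tested genes. The median log2 fold change of the 18 was −0.13. The smallest p was that of Gata6, the transcription factor of resident cavity macrophages, at 109, 107 and 92.6 CPM in wild-type, against 124, 131 and 127 CPM in Zeb1 (+/-) (log2 fold change 0.31, edgeR adjusted p = 0.115). Pparg, the nuclear receptor that drives Cd36, was at 2.34, 1.81 and 2.76 CPM and at 1.23, 1.65 and 1.46 CPM (log2 fold change −0.63, edgeR adjusted p = 0.256). Its groups did not overlap, while those of Cd36 did. Nr1h3, the liver X receptor alpha for which Cd5l is a known target, was at 6.76, 5.79 and 7.33 CPM and at 6.92, 5.27 and 6.09 CPM (log2 fold change −0.13, edgeR adjusted p = 0.724). Pparg and Nr1h3 are named for these known roles.

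Of 17 genes for partners and signalling of the receptors, such as Toll-like receptors and Src-family kinases, 16 were tested and 0 passed, with a median of −0.04. The smallest p was that of Tlr9, the endosomal receptor for CpG DNA, at 3.82, 4.44 and 4.14 CPM in wild-type, against 2.96, 2.34 and 2.28 CPM in Zeb1 (+/-) (log2 fold change −0.73, edgeR adjusted p = 0.102). Of 17 genes of lipid uptake and storage 16 were tested and 0 passed, with a median of 0.04. Apoe, the apolipoprotein that macrophages secrete, had the smallest p there, with means of 19183 and 14055 CPM (log2 fold change −0.45, edgeR adjusted p = 0.0505). Of 11 genes for the handling of C3b, the ligand of Vsig4, 10 were tested and 0 passed, with a median of −0.03. The smallest p was that of Itgb2, the beta chain of the complement receptor integrins, at 2575, 2566 and 2531 CPM and at 3073, 3169 and 2834 CPM (log2 fold change 0.24, edgeR adjusted p = 0.165).

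Markers of other cells are given beside these values. Their lists, like those above, were chosen with earlier results of these data known. The counts below therefore describe these data and are not independent support for a change in any cell type. Of 12 markers of small peritoneal macrophages, the minor monocyte-derived population, 6 fell and 0 rose, against 0.433% and 0.155% of all tested genes. The 12 had a median of −0.56 and summed to 2276 to 2415 CPM in wild-type, against 1500 to 1698 CPM in Zeb1 (+/-). Besides Mrc1 and Fcrls, those that fell were the monocyte chemokine receptor gene Ccr2 (log2 fold change −0.62), Retnla (−0.61), the folate receptor gene Folr2 (−1.19, with 52.6% of its 50-base stretches also in Gm10602) and Plbd1 (−0.51). Of 12 markers of large peritoneal macrophages, the resident majority, 0 passed and 10 were above 0, against 6454 of all 12940 tested genes. The 12 had a median of 0.19 and sums of 69536 to 75877 and 75674 to 80649 CPM. The smallest p there was that of the integrin gene Itga6 (log2 fold change 0.35, edgeR adjusted p = 0.0689). Of 16 B cell markers 14 were tested, 0 passed and 13 were below 0, with a median log2 fold change of −0.96. In 11 of them all Zeb1 (+/-) values lay below all wild-type values, against 10.3% of all tested genes. The 14 tested B cell markers summed to 620 to 825 CPM in wild-type, against 528 to 608 CPM in Zeb1 (+/-). Most of that sum came from Cd37 (374 to 432 and 358 to 407 CPM) and Bank1 (67.5 to 82.3 and 73.6 to 80.3 CPM), whose groups overlapped and which are named after their values were seen. The smallest p was that of the kinase gene Blk (log2 fold change −1.09). Cr2 and Vpreb3, the other two, were too low to be tested. The part of small peritoneal macrophages in the values of Marco was not tested. For B cells, the fit with their marker mean as a covariate gave the value of −0.62 above. As stated there, that fit cannot separate the covariate from genotype.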

How the data were processed

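Polyadenylated RNA of 6 libraries of sorted peritoneal macrophages was sequenced after extraction with RNAzol and a stranded mRNA kit, per the labels' protocols. The authors deposited estimated counts (expected counts, all whole numbers) per gene, made with STAR, RSEM and edgeR on GRCm38, per the submitters' processing notes. Versions and roles of these tools are not stated there. The annotation release and strand setting are not given in the sources used here. Coordinates, exon lengths and transcripts came from GENCODE M21, also GRCm38. Of the table's identifiers 99.3% matched it without their version.

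Genes were kept by filterByExpr (minimum count 10, minimum total 15), which left 12940 genes. Counts were scaled by TMM and genotype was tested with the quasi-likelihood method of edgeR 4.0.16 in R 4.3.3, adjusted by Benjamini-Hochberg over all tested genes at 0.05. The SE was the log2 fold change divided by the square root of F. Nothing in the labels says that the set numbers pair the genotypes. The alternatives included DESeq2 1.42.0 and limma-voom (limma 3.58.1). The 8 genes, the lists and the covariates were chosen with earlier results of these data known. Named are the 8 genes, the sort genes, Zeb1, the 5 genes most like Marco and, per list, the genes past the threshold or else the one with the smallest p. Further genes are named for a known role (Pparg, Nr1h3), as neighbours (Fcrls, Clec1b) or after their values were seen (Cd163, Cd37, Bank1, Cd209a, Pf4), as stated beside them. For markers of cells with low sums no gene is named. Uniqueness is the share of 50-base stretches found in transcripts of other genes: at most 0.2% for the 8 genes.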

Additional observations from a re-analysis of the deposited data

How the results depend on the processing

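The count of changed genes over the whole table was 76. It was 522 without the low-count filter, 351 with DESeq2, 31 with a term for the structural RNA class and 3 with the B cell covariate. With 1 library left out it ran from 5 (without wild-type replicate 2) to 127 (without Zeb1 (+/-) replicate 3). It was 28 without Zeb1 (+/-) replicate 1 and 11 without Zeb1 (+/-) replicate 2. The cause was not tested. Of the 8 genes, 2 passed without the low-count filter (Marco and Cd5l) and 1 with DESeq2 (Cd5l), and 0 in the other 13 settings. Marco, Msr1, Scarb1, Cd5l and Vsig4 kept their direction in all 15 settings. With the B cell covariate Cd36 turned to 0.11 and Cd68 to −0.16. With the structural RNA term, where the comparison rests on wild-type replicate 3 alone, Olr1 turned to −0.45. Olr1 moved furthest with the B cell covariate, from 0.15 to 1.21 (edgeR adjusted p = 0.250). With 1 library left out Cd36 ran from −0.081 to 0.029 and Cd68 from −0.015 to 0.11, both reversed only by the loss of wild-type replicate 3. Olr1 ran from −0.12 to 0.52, reversed by the loss of Zeb1 (+/-) replicate 1 (−0.12) or of wild-type replicate 1 (−0.08). None of these reversed values passed.

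With the replicate number as a block 15 genes changed, and 0 of the 8. Deviations of equally numbered libraries from their group means correlated at −0.25, −0.03 and −0.17, under the 0.1 set for pairing. Unlike numbers reached 0.27 (wild-type replicate 1 with Zeb1 (+/-) replicate 3). These correlations therefore cannot decide whether the numbers pair the libraries. With the length of 1 transcript, chosen as an alternative after seeing the data, the wild-type levels per kilobase were 437 for Cd68, 217 for Cd36, 687 for Msr1 and 27.0 for Scarb1. The list medians with RLE size factors moved by less than a typical SE, and the 5 genes most like Marco stayed the same with a prior count of 0.5 in place of 2. Counting error reached 9.71% for Olr1 and at most 2.88% for the other 7 genes, so the 3 pools a genotype set the precision for these.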
